A study of Mus musculus with 4 samples.

Results

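The genes described here are 10 feedback inhibitors and transcriptional targets of the ERK pathway, namely Spry1, Spry2, Spry4, Spred1, Dusp4, Dusp6, Etv1, Etv4, Etv5 and Phlda1. They were chosen by name from a table of 35869 gene rows, and all 10 had a row. RNA was sequenced from oligodendrocytes, the myelin-forming glia of the brain, which were sorted by flow cytometry from mouse cortex at postnatal day 5 as cells positive for the surface lipids O4 and GalC. One group held 2 libraries from Zfp488KI/KI mice, which carry a knock-in at both copies of the zinc finger gene Zfp488 and are labelled Zfp488 KO (KO 1 and KO 2), and the other held 2 libraries labelled WT (WT 1 and WT 2). The sources used here do not state the design of the allele, the strain, the sex or any pooling of animals, and the labels enter the cells once as a cell line. Whether libraries of 1 genotype stem from different animals is not stated, so every p-value reflects the scatter of these libraries alone, which could be technical.

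Growth factor receptors such as those for PDGF and FGF activate Ras, which starts a kinase cascade of RAF, MEK and ERK. Active ERK switches on the genes of its own inhibitors, so the RNA of Sprouty, Spred and dual-specificity phosphatase genes follows recent pathway activity. In the oligodendrocyte lineage the pathway supports the proliferation of precursors and, later, the growth of the myelin sheath.

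Values are FPKM, which are read fragments scaled to transcript length and library size, so levels of different genes can be set side by side. Their sum was 311846 in KO 1, the lowest, and 341145 in WT 2, the highest. No total of reads was used, but single reads were visible as steps among low values, at about 37.4 to 44.5 reads for 1 FPKM on a transcript of 1 kb. Zfp488 was at 4.82 and 4.11 FPKM in KO and at 6.61 and 5.29 FPKM in WT (limma log2 fold change -0.34, SE 0.33, adjusted p = 0.95). Since RNA from whatever the allele leaves of the locus would count too, this is a weak check of the labels. Libraries of 1 genotype also differed among themselves. The summed level of 9 vascular and fibroblast markers was 1.02 and 40.9 FPKM in KO 1 and KO 2, and 0.451 and 44.2 FPKM in WT 1 and WT 2, although the sort was for oligodendrocytes. In KO 2 and WT 2 most of that sum was Cldn5, a tight junction gene of endothelial cells. Cldn5 was at 0.035 and 26.3 FPKM in KO and at 0 and 26.8 FPKM in WT. Other endothelial genes did not reach such levels. Pecam1 was at 0 and 0.002 FPKM in KO and at 0 in both WT libraries. Cdh5 was at 0 and 0.353 FPKM in KO and at 0 and 0.043 FPKM in WT. Flt1 was at 0 in both KO libraries and at 0.002 and 1.20 FPKM in WT, and Tek at 0 and 0.034 FPKM in KO and at 0 and 0.635 FPKM in WT. In the summed level KO 2 and WT 2 thus stood apart from KO 1 and WT 1, with Cldn5 as the largest part. Rgs5 had the same order, at 0 and 9.38 FPKM in KO and at 0.449 and 9.90 FPKM in WT. So had Dcn (0.982 and 2.97 FPKM in KO, 0 and 4.29 FPKM in WT) and Col1a1 (0.004 and 1.84 FPKM in KO, 0 and 1.26 FPKM in WT). Of the 9 markers, 7 were higher in the second library of both genotypes. Values without single libraries are given beside the results they move. Myelin genes of oligodendrocytes were present in every library (their sums are given with the lineage markers), while Aspa, a gene of mature oligodendrocytes, was listed at 0 in all 4.

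The sequence before the start site is shown for Etv5, Dusp6 and Spred1. Among the members tested below, Etv5 had the largest genotype difference and Dusp6 the widest ratio between libraries. Spred1 was the tested member whose order of libraries differed most from the others. Each sequence is the 250 bases before a RefSeq start (GRCm38.p6), read 5′ to 3′ on the strand of the gene. Capitals mark GGAA on either strand, the core that ETS transcription factors such as Etv1, Etv4 and Etv5 recognise.
Etv5, chr16:22438369-22438618, minus strand, one of the starts listed and inside the annotated gene: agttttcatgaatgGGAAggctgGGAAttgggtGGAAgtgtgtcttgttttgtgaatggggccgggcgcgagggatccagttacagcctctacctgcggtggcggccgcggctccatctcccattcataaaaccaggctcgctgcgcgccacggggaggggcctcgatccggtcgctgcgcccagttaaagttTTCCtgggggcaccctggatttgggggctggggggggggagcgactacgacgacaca
Dusp6, chr10:99262981-99263230, plus strand: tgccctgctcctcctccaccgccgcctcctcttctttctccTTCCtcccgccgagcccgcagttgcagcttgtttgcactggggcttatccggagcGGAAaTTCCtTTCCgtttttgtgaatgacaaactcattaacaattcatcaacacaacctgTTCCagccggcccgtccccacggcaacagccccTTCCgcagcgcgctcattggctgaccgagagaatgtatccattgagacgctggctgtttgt
Spred1, chr2:117120821-117121070, plus strand: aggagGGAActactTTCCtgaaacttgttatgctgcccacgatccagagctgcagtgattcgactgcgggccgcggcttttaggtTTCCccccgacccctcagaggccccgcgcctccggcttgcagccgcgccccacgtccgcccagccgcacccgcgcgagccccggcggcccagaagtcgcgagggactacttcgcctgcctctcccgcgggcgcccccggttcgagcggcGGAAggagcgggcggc
The core occurred 4 times before this Etv5 start, 6 times in Dusp6 and 4 times in Spred1. Before the other Etv5 start it occurred 0 times, in Spry1 1 time, in Spry2 3 times and before the starts of Etv1 2 times and 1 time, so the counts of the members lay on both sides of the median, which was 3 over 32851 promoters of the same length, 93.4% of which held it. Promoters were matched for 6 of the 10 genes (Spry1, Spry2, Spred1, Dusp6, Etv1 and Etv5), with 8 starts in all. None of these 8 stretches held the longer ETS site CCGGAA, the AP-1 site TGANTCA, the cyclic AMP response element TGACGTCA or the CArG box of serum response factor on either strand. Of all promoters, 12%, 6.75%, 1.55% and 1.47% held them. The CCGGAA site contains the GGAA core, and no match says only that these letters are not in the window.

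The 9 members with at least 1 FPKM in at least 2 libraries were tested, and all 9 had a log2 fold change of KO over WT above 0, as had 50% of the 10754 tested rows. With 2 libraries per group the test called none of the tested rows, so the absence of calls says nothing particular about the 9. By limma, 0 of 9 passed an adjusted p of 0.05 (0% of tested rows did in either direction), and their adjusted p lay between 0.914 and 0.995. At an unadjusted p under 0.05 the count was again 0 of 9, against 5.65% of tested rows (2.81% higher and 2.85% lower in KO). That count was 1 of 9 without WT replicate 1, when 532 of the tested rows had such a p, and 3 of 9 without WT replicate 2, when 618 had. Both KO libraries lay above both WT libraries for 0 of 9 members and below for 0 of 9, whereas 16.6% of tested rows were above and 18.3% below. The median log2 fold change of the 9 was 0.35, beside a median of 8.1e-05 over all tested rows. Without WT replicate 1 that median was -0.074, and 4 of 9 members were above 0. Without WT replicate 2 it was 0.71, and without KO replicate 1 and KO replicate 2 it was 0.56 and 0.23. In sorted bulk RNA, fewer cells that express a gene and less RNA per cell cannot be told apart.

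**Figure D1:**
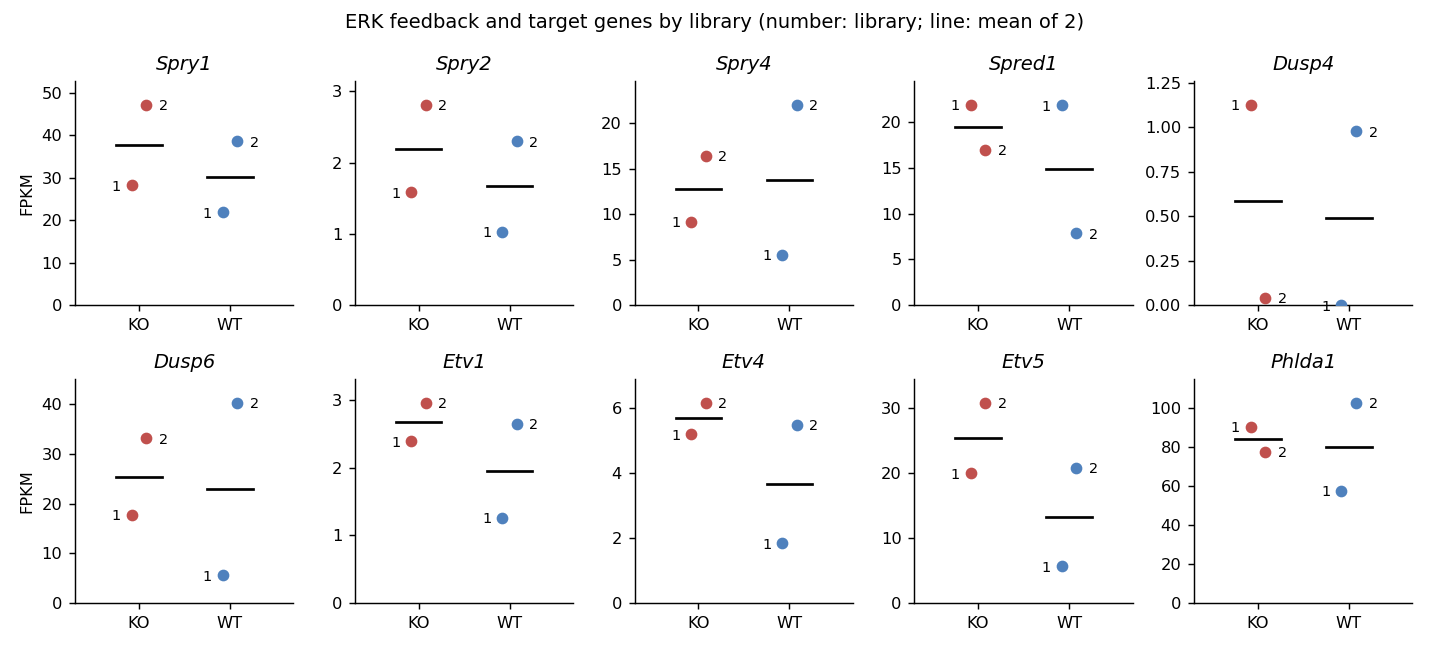
FPKM of each of the 10 genes (vertical axes from 0, 1 panel per gene) in the KO libraries (left, red) and the WT libraries (right, blue). The digit beside a point is the library number and the line is the mean of 2 libraries. In every panel the groups overlap, and WT 1 is the lowest point in 9 of 10.

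A single library set much of this pattern. WT 1 held the lowest of the 4 values for 9 of the 10 genes, whereas it was lowest for 27.2% of tested rows. Spred1 was the exception, with its lowest value in WT 2. Dusp4, which was not tested, counts among the 9 through a value listed at 0 in WT 1. WT 2 was above WT 1 for 9 of 10 genes (8 of the 9 tested, against 52.8% of tested rows). KO 2 was above KO 1 for 7 of 10 (7 of the 9 tested, against 51.7% of tested rows). For all 9 tested members the gap between WT 1 and WT 2 on the log2 scale was larger than the difference between genotypes, as it was for 61.7% of tested rows. The gap between KO 1 and KO 2 was larger than the genotype difference for 5 of 9. For this count no share over all tested rows was taken, so it cannot be called high or low. Libraries were also compared within a library number, which the labels do not call a batch. KO 1 was above WT 1 for 10 of 10 genes (9 of the 9 tested, against 49.5% of tested rows). KO 2 was above WT 2 for 6 of 10 (6 of the 9 tested, against 48.6%). The median log2 difference of the 9 tested members was 0.64 between KO 1 and WT 1 and 0.14 between KO 2 and WT 2. These are comparisons of 1 library with 1 library and carry no test.

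The Sprouty genes encode inhibitors that act between receptor and RAF and are induced by the pathway they restrain. Spry1 (chromosome 3, 37639947 to 37644598) was at 28.2 and 47.1 FPKM in KO and at 21.9 and 38.6 FPKM in WT. The groups interleaved, with the second library higher in each genotype. The log2 fold change was 0.32 (SE 0.39, 95% interval -0.70 to 1.33), and it was -0.079 without WT replicate 1 and -0.044 without KO replicate 2. Reads of Gm42922, an antisense gene that overlaps an exon of Spry1, could not be told apart from it, since the strand setting of the counting is not given.

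Spry2 (chromosome 14, 105891947 to 105896819) was far less abundant per length than Spry1, at 1.59 and 2.81 FPKM in KO and 1.03 and 2.30 FPKM in WT. Its order of libraries was that of Spry1, and the centred log2 profiles of this pair were the closest among the members (root mean square difference 0.068). Its log2 fold change was 0.28 (SE 0.45, 95% interval -0.87 to 1.43), with -0.074 without WT replicate 1 and -0.0032 without KO replicate 2. Spry4 (chromosome 18, 38586247 to 38601415) was at 9.19 and 16.4 FPKM in KO and at 5.53 and 22.0 FPKM in WT. Both KO values fell between the WT values. Its mean FPKM was lower in KO (12.8 ± 5.09, against 13.8 ± 11.6 in WT; SD, n = 2), while the log2 fold change had the other sign (0.12, SE 0.68, 95% interval -1.62 to 1.86). Without WT replicate 1 it was -0.79, and without KO replicate 2 it was -0.27.

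Spred1 (chromosome 2, 117121374 to 117182279) encodes a membrane protein that brings neurofibromin to Ras and so turns Ras off. It was at 21.9 and 17.0 FPKM in KO and at 21.8 and 7.88 FPKM in WT. Here WT 2 was the low library, and KO 1 and WT 1 were level. The log2 fold change was 0.51 (SE 0.51, 95% interval -0.79 to 1.82), and without WT replicate 2 it was -0.17. Spred1 also stood farthest from the mean profile of the 9 tested members (root mean square difference 0.87, against 0.13 to 0.62 for the other 8), and its profile differed most from that of Dusp6 (1.49).

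Dual-specificity phosphatases remove the activating phosphates of ERK, Dusp6 in the cytoplasm and Dusp4 in the nucleus. Dusp6 (chromosome 10, 99263231 to 99267489) was at 17.7 and 33.1 FPKM in KO and at 5.52 and 40.3 FPKM in WT. The WT values were the lowest and the highest of the 4, 7.30-fold apart, the widest ratio among the 9 tested members. The log2 fold change was 0.62 (SE 0.92, 95% interval -1.73 to 2.98). It was -0.71 without WT replicate 1 and 1.95 without WT replicate 2. Dusp4 (chromosome 8, 34807297 to 34819894) was at 1.13 and 0.042 FPKM in KO and at 0 and 0.978 FPKM in WT, and did not reach the filter. The high library was numbered 1 in KO and 2 in WT, so Dusp4 varied within genotypes in opposite order. On its longest transcript these values stand for about 124 and 4 reads in KO and 0 and 119 reads in WT, and a value listed at 0 can be a failed estimate.

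The ETS factors Etv1, Etv4 and Etv5 form the PEA3 group, whose genes are induced by FGF and other ERK signals. Etv5 (chromosome 16, 22381309 to 22439719) was at 20.0 and 30.8 FPKM in KO and at 5.63 and 20.8 FPKM in WT. WT 1 was well below the others, and KO 1 and WT 2 lay close together. The log2 fold change of 1.10 (SE 0.62, 95% interval -0.50 to 2.71; limma adjusted p = 0.914) was the largest of the 9 and was 0.24 without WT replicate 1 and 1.96 without WT replicate 2. Etv4 (chromosome 11, 101769742 to 101785371) was at 5.19 and 6.15 FPKM in KO and at 1.84 and 5.48 FPKM in WT. Apart from WT 1 its values were within a narrow range. Its log2 fold change was 0.63 (SE 0.50, 95% interval -0.64 to 1.91), with 0.039 without WT replicate 1. Etv1 (chromosome 12, 38779380 to 38870484) was at 2.39 and 2.96 FPKM in KO and at 1.26 and 2.65 FPKM in WT, a log2 fold change of 0.35 (SE 0.41, 95% interval -0.71 to 1.41) that was 0.0067 without WT replicate 1. The sign of these 3 genes stayed positive with each library left out in turn. With libraries rescaled to the same sum (TPM), both KO libraries lay above both WT libraries for Etv4 (16.6 and 19.2 TPM in KO, 5.46 and 16.1 in WT) and Etv5 (64.1 and 96.2 TPM in KO, 16.7 and 61.0 in WT), as they did for 21.7% of tested rows, while 13.1% had both KO libraries below.

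Phlda1 (chromosome 10, 111506286 to 111508645) encodes a pleckstrin homology-like domain protein induced by growth factors. It was the most abundant member per length, at 90.2 and 77.4 FPKM in KO and at 57.6 and 102.5 FPKM in WT. Both KO values lay between the WT values. KO over WT it differed by 0.12 on the log2 scale (SE 0.31, 95% interval -0.69 to 0.92), the narrowest interval of the 9, and without WT replicate 1 it was -0.29. Gm28592, an antisense gene, overlaps an exon of Phlda1, so the same limit on strand holds.

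**Figure D2:**
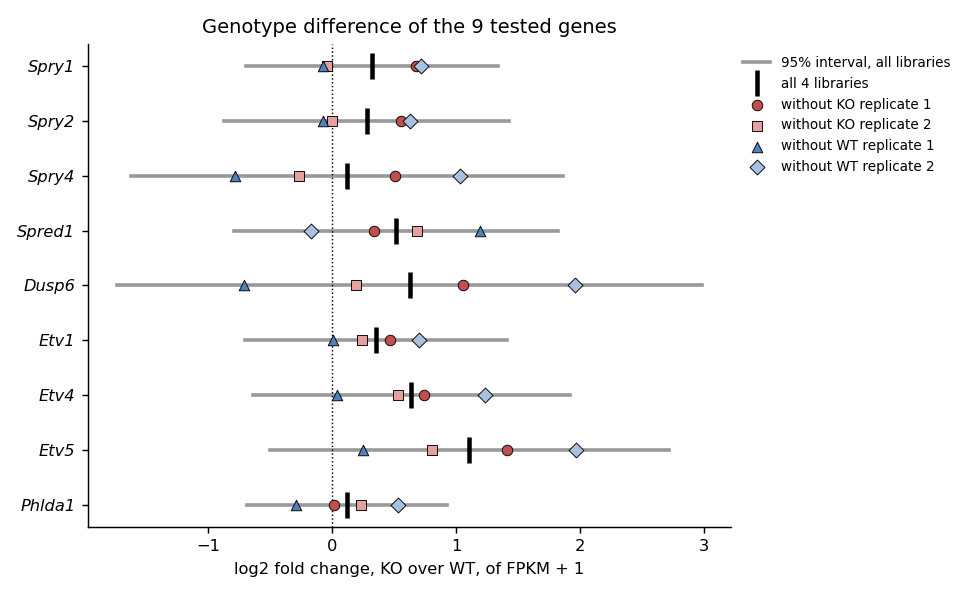
Log2 fold change of KO over WT on the scale of FPKM + 1 (horizontal axis) for the 9 tested genes. Black ticks are the values with all 4 libraries, grey bars their 95% intervals from limma, and symbols the values without 1 library. Every interval holds 0, and the value without WT replicate 1 (blue triangle) is the lowest of its row except for Spred1.

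Ordered by mean FPKM over the 4 libraries, the members ran from Phlda1 (81.9) through Spry1 (33.9), Dusp6 (24.2), Etv5 (19.3), Spred1 (17.1), Spry4 (13.3), Etv4 (4.66), Etv1 (2.31) and Spry2 (1.93) to Dusp4 (0.536). Only Phlda1 was separated from its neighbour in that order by the ranges over libraries, and all other neighbours overlapped. Within every single library, though, the order from Spry4 through Etv4, Etv1 and Spry2 to Dusp4 held. The approximate reads behind the tested members ran from 81 (Spry2 in WT 1) to 8886 (Phlda1 in WT 2).

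The difference between libraries of 1 genotype was shared by genes outside the pathway's feedback arm. The summed level of the 10 members was 197.4 and 233.8 FPKM in KO 1 and KO 2, and 122.1 and 243.4 FPKM in WT 1 and WT 2. Over 10 immediate early genes, which cell isolation and ERK both induce, the sum was 72.2 and 328.8 FPKM in KO and 95.9 and 229.0 FPKM in WT. Fos, Egr1 and Ier2 of this list are also among the other ERK targets described below. Of the 10, 6 were higher in the second library of both genotypes. Jun, for one, was at 29.7 and 63.2 FPKM in KO but at 37.0 and 27.9 FPKM in WT. Over 8 proliferation genes it was 185.2 and 492.9 FPKM in KO and 132.0 and 476.8 FPKM in WT, and all 8 were higher in the second library of both genotypes (31.1% of tested rows were).

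Markers of other cells moved in the same order. For 10 astrocyte markers the sum was 182.0 and 347.8 FPKM in KO and 128.5 and 257.1 FPKM in WT, with 9 of 10 higher in the second library of both genotypes. For 8 microglia markers the sum was 24.3 and 73.0 FPKM in KO and 19.7 and 69.9 FPKM in WT (6 of 8), and for 8 neuron markers 21.7 and 40.3 FPKM in KO and 17.0 and 32.3 FPKM in WT (4 of 8). Of the 9 vascular and fibroblast markers, 7 were higher in the second library of both genotypes. The part of such cells in the values of the members was not tested.

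Lineage markers ran partly with genotype and partly with library. The sum of 8 precursor markers, Pdgfra among them, was 334.9 and 276.3 FPKM in KO and 219.2 and 207.4 FPKM in WT, so both KO libraries were higher. The sum of 6 premyelinating markers was 295.4 and 129.6 FPKM in KO and 349.0 and 185.6 FPKM in WT, and that of 10 myelin genes, of which Cnp was the most abundant, was 500.9 and 234.4 FPKM in KO and 770.8 and 484.4 FPKM in WT. Both KO libraries lay above both WT libraries for 6 of the 8 precursor markers, and below for 1 of the 6 premyelinating markers and 6 of the 10 myelin genes, while the opposite held for 0 of each list (13.8% above and 13.3% below of the rows above 0 in any library). WT 1, the library with the lowest level of 9 members, thus had the highest sum of myelin genes and the lowest sum of proliferation genes. The part of cell stage in the members' values was not tested.

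**Figure D3:**
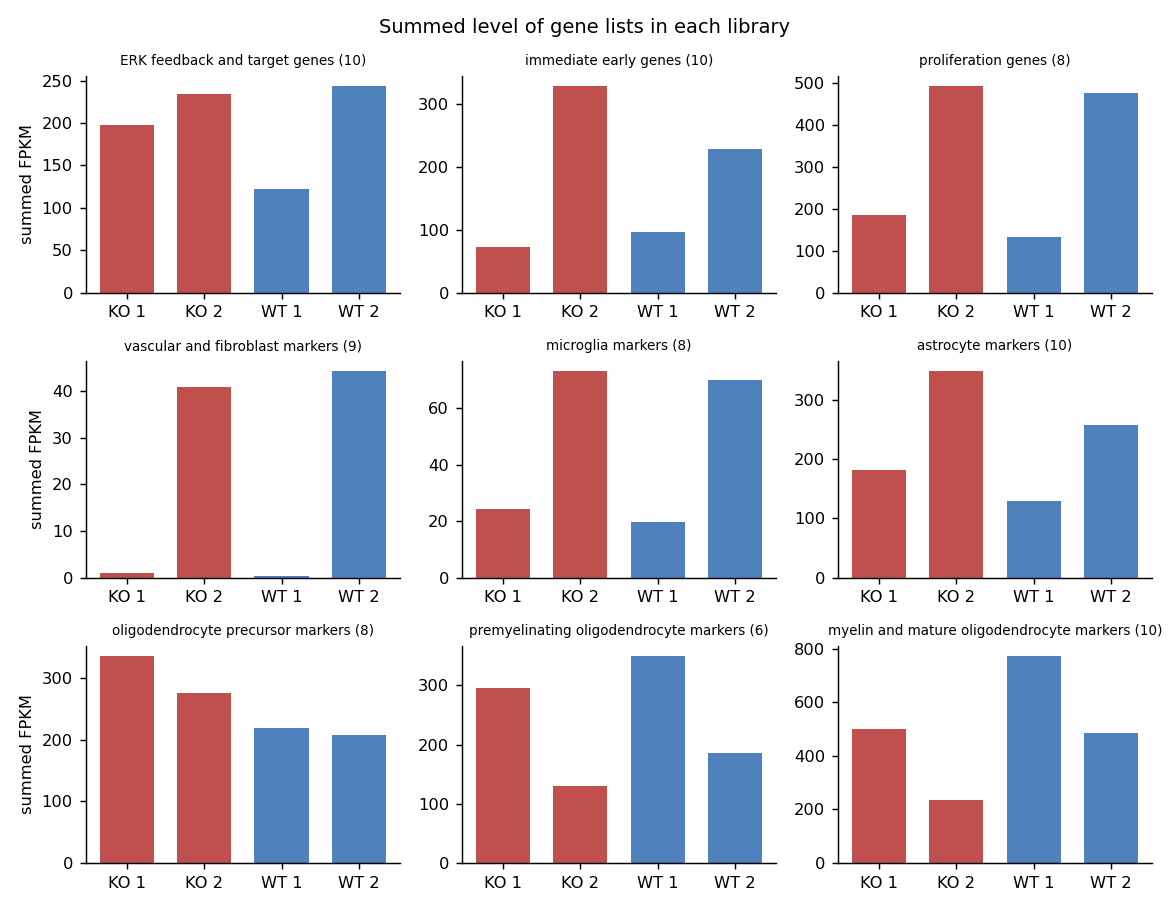
Summed FPKM (vertical axes from 0) of the 10 ERK feedback and target genes and of 8 marker lists in the KO libraries (red) and the WT libraries (blue), with the number of genes in brackets. Immediate early, proliferation, vascular, microglia and astrocyte sums are higher in KO 2 and WT 2, while precursor sums are higher in both KO libraries.

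Some genes outside the pathway had nearly the same profile as the mean of the 9 tested members. Among 5031 protein-coding rows with a mean of at least 5 FPKM, the smallest root mean square difference of centred log2 values over the 4 libraries was that of Sparcl1 (0.00052), a matricellular protein gene, at 40.7 and 53.2 FPKM in KO and 23.6 and 48.2 FPKM in WT. Vcam1, a cell adhesion gene, followed (0.040), then Ddah1 (0.050), Eif2s3x (0.058) and Gpx3 (0.061). With 4 libraries such likeness is a description only. Of the members, Etv4 (0.13), Etv1 (0.13), Spry2 (0.15) and Spry1 (0.16) were closest to their own mean.

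Upstream of ERK, receptor and ligand genes differed in both directions, and none passed the test. Over all 20 genes of the list both KO libraries were higher for 6 and lower for 4 (13.8% and 13.3% of the rows above 0 in any library). The filter let 8 of the 20 into the test, with a median log2 fold change of 0.54, and 3 of these 8 (Kit, Erbb3 and Fgfr1) reached 1 FPKM in the KO libraries alone, so that median describes only what the filter kept. Fgfr2, an FGF receptor that was not tested, was at 0.227 and 0.176 FPKM in KO and at 0.448 and 0.367 FPKM in WT. Erbb4, also not tested, was at 0.453 and 0.303 FPKM in KO and at 0.650 and 0.565 FPKM in WT. Pdgfra, the PDGF receptor of precursors, was at 40.2 and 42.5 FPKM in KO and at 18.5 and 26.8 FPKM in WT (log2 fold change 0.86, SE 0.26; limma adjusted p = 0.859). Kit, the stem cell factor receptor, was at 2.03 and 3.14 FPKM in KO and at 0.017 and 0.033 FPKM in WT (log2 fold change 1.79, SE 0.39). Erbb3, a neuregulin receptor, was at 1.80 and 1.68 FPKM in KO and at 0.173 and 0.142 FPKM in WT (1.24, SE 0.36). This list shares Pdgfra with the precursor markers and Fgfr3 with the astrocyte markers. With no filter on low values the median of the list was 0.032, and without WT replicate 2 it was 0.90.

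The list called Ras to ERK cascade, which runs from receptor adaptors to kinases activated by ERK, showed no common direction. Of 23 genes 18 were tested, 0 passed, and both KO libraries were higher for 4 and lower for 2 (16.6% and 18.3% of tested rows were; median log2 fold change -0.12). Mapk3, which encodes ERK1, was at 51.3 and 25.03 FPKM in KO and at 57.7 and 37.6 FPKM in WT. Its groups overlapped (log2 fold change -0.37, SE 0.42). The largest differences were those of the FGF receptor adaptor gene Frs2 (0.76, SE 0.45), the Ras activator gene Sos1 (-0.58, SE 0.47) and the adaptor gene Gab1 (0.56, SE 0.35). Over all 23 genes, tested or not, both KO libraries were higher for 4 and lower for 4 (13.8% and 13.3% of the rows above 0 in any library). The median of the list was -0.0011 without WT replicate 1, -0.048 without KO replicate 1 and -0.020 without KO replicate 2.

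Feedback genes beyond the 10 were mixed. Of 11 genes 10 had a row and 6 were tested, 0 passed, and both KO libraries were higher for 0 and lower for 1 (16.6% and 18.3% of tested rows were; median log2 fold change -0.047). That 1 was Dusp2, a nuclear phosphatase gene, at 2.04 and 1.61 FPKM in KO and at 4.42 and 5.47 FPKM in WT (log2 fold change -1.07, SE 0.35; limma adjusted p = 0.859). Dusp1, a phosphatase gene of the early stress response, was at 2.22 and 29.5 FPKM in KO and at 0.484 and 19.2 FPKM in WT, high in the second library of each genotype (0.85, SE 1.60). Dusp9 was at 1.81 and 0.424 FPKM in KO and at 4.37 and 1.197 FPKM in WT (-0.78, SE 0.62). Spred2, the paralogue of Spred1, was at 0.289 and 0.199 FPKM in KO and at 0.003 and 0.170 FPKM in WT and was not tested. Over all 10 rows, tested or not, both KO libraries were higher for 3, Spred2 among them, and lower for 2. Of the rows above 0 in any library, 13.8% were higher and 13.3% lower. Without WT replicate 1 the median of the list was -0.58, without WT replicate 2 it was 0.095, and without KO replicate 1 and KO replicate 2 it was -0.37 and -0.44. With a filter of 5 FPKM it was 0.62.

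Other ERK targets had values on both sides of 0. Of 12 genes 8 were tested, 0 passed, and the median log2 fold change was -0.048. Of the 8, both KO libraries were higher for 0 and lower for 0 (16.6% and 18.3% of tested rows were). Over all 12 genes, tested or not, both KO libraries were higher for 1 and lower for 0 (13.8% and 13.3% of the rows above 0 in any library). Egr1, an immediate early zinc finger gene, was at 5.29 and 105.9 FPKM in KO and at 4.15 and 66.0 FPKM in WT (0.48, SE 1.76). Fos, a subunit of AP-1, was at 0.862 and 54.8 FPKM in KO and at 7.71 and 70.2 FPKM in WT (-1.29, SE 1.84). Both were high in the second library of each genotype, and those gaps exceeded the difference between genotypes. Ccnd1, which encodes cyclin D1 and links ERK to the cell cycle, was at 8.40 and 17.9 FPKM in KO and at 8.19 and 21.2 FPKM in WT (-0.10, SE 0.57), and Ier3 differed by 0.21 (SE 0.35). Without WT replicate 1 and WT replicate 2 the median of the list was 0.025 and 0.18, and without KO replicate 1 and KO replicate 2 it was 0.49 and -0.55.

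Other ETS factors were mostly low, with 4 of 14 tested, 0 past the threshold, 0 higher and 1 lower in both KO libraries (16.6% and 18.3% of tested rows were; median log2 fold change 0.053). Elk1, a direct ERK substrate, was at 6.19 and 5.003 FPKM in KO and at 5.98 and 2.19 FPKM in WT (0.48, SE 0.48). Elf1 was at 1.04 and 0.979 FPKM in KO and at 1.74 and 1.28 FPKM in WT (-0.31, SE 0.36), and Ets2 differed by 0.12 (SE 0.37). Over all 14 genes, tested or not, both KO libraries were higher for 2 and lower for 1 (13.8% and 13.3% of the rows above 0 in any library). Without WT replicate 1 and WT replicate 2 the median was -0.049 and -0.10, and without KO replicate 1 and KO replicate 2 it was -0.019 and 0.13.

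**Figure D4:**
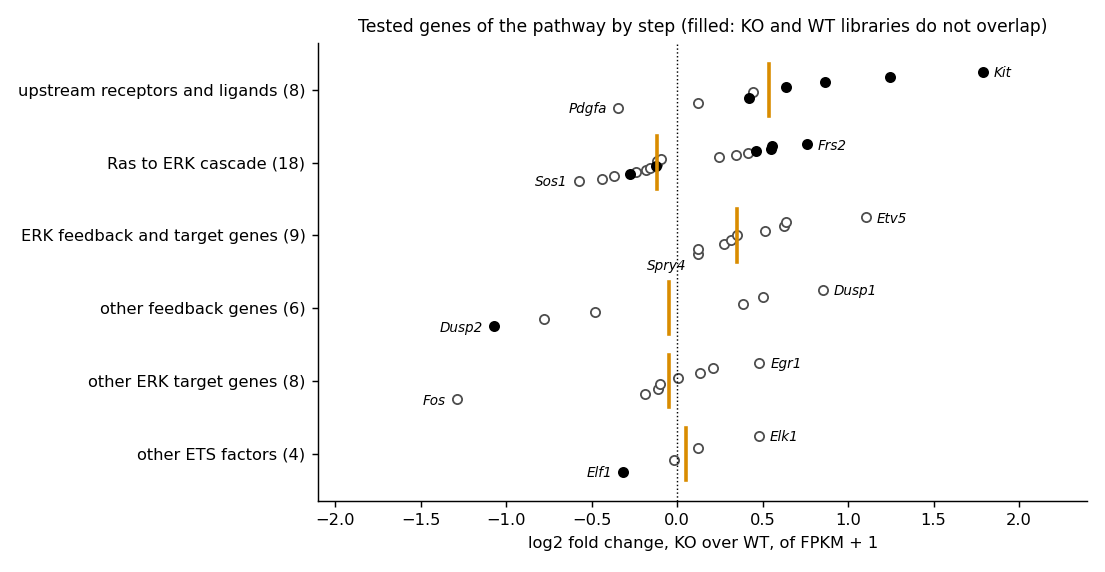
Log2 fold change of KO over WT (horizontal axis) of every tested gene in 6 lists along the pathway, with the number tested in brackets. Orange bars are list medians and filled points are genes whose KO and WT libraries do not overlap. All 9 ERK feedback and target genes lie above 0 with overlapping libraries, and the receptor row shows only the 8 of 20 genes that reached the filter, 3 of them through the KO libraries alone.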

How the data were processed

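RNA was measured in 4 libraries of sorted mouse oligodendrocytes (2 KO, 2 WT). The deposited values are FPKM made by the authors, 1 column per library, and every sample column was used. TopHat (version not stated) and the mm10 build come from the submitters' processing notes. How FPKM were estimated, with which annotation, strand setting or filter, is not stated in the sources used here.

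Tests used log2(FPKM + 1), a scale on which changes of low genes look smaller than they are. A linear model in limma 3.58.1 (R 4.3.3) was fitted to the 10754 rows with at least 1 FPKM in at least 2 libraries (genotype as the term, moderated variances with a trend over expression level, Benjamini-Hochberg adjustment over all tested rows, threshold 0.05, two-sided). Intervals are 95% intervals from that fit. The procedure was tested on simulated data. Their scatter within groups was held well below the gap between WT libraries of each tested member, so larger scatter was not covered. FPKM are not counts and counts were not rebuilt. Reads per FPKM were estimated from the step of low values times the longest GENCODE M21 transcript, so they are approximate. Positions are those of GENCODE M21 on GRCm38, the sequence of mm10, and promoters are from RefSeq GRCm38.p6.

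The members and all lists were chosen with earlier results of these data known, so counts over them are descriptions. All members are named. From each pathway list came the genes past the threshold or, as none passed, the 3 with the largest absolute log2 fold change, besides Zfp488, Pdgfra, Mapk3, Ccnd1, Spred2, Dusp1, Egr1 and Fos. Cldn5, Pecam1, Cdh5, Flt1, Tek, Rgs5, Dcn, Col1a1, Aspa, Jun, Fgfr2 and Erbb4 were chosen after their values were seen. A further gene that the rule names is not reported here. The alternatives were another pseudocount, other filters and scalings, no variance trend, a replicate block and each library left out.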

Additional observations from a re-analysis of the deposited data

How the results depend on the processing

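The count of genes past the adjusted threshold was 0 under each alternative run, with a smallest adjusted p between 0.413 (replicate block) and 1 (without KO replicate 2). The libraries share the numbers 1 and 2, which no label says to pair them. Library 2 minus library 1 correlated between genotypes across tested rows (0.29), and with the replicate block 0 genes passed and 1025 rows had an unadjusted p under 0.05, against 608, among them 1 member, against 0. The smallest adjusted p of a member was 0.463 with the block and 0.914 without it. The block cannot move a fold change in this balanced design, so the median of the members was 0.35 in both.

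The members' median lay between -0.074 and 0.71 with 1 library left out and between 0.33 and 0.55 over the other alternatives with both libraries of each genotype. Members above both WT libraries in KO numbered 2 on the TPM scale, with 1 library left out between 1 and 8 were higher and between 0 and 3 lower, with 9 higher and 0 lower in the libraries numbered 1 alone, and 6 higher and 3 lower in those numbered 2 alone, comparisons added after seeing the data. Fewer libraries make separation easier by construction. With 1 library left out, the lone library of a genotype is assumed to vary like the other group.

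Median log2 fold changes of the pathway lists moved as follows, and the cause was not tested. With no filter, receptors and ligands were at 0.032 and the cascade at -0.015. On the TPM scale they were at 0.79 and -0.032. With a filter of 5 FPKM, other feedback genes were at 0.62 and other ETS factors at 0.30. With 1 library left out, other feedback genes lay between -0.58 and 0.10, other ERK target genes between -0.55 and 0.49, upstream receptors and ligands between 0.44 and 0.90, Ras to ERK cascade between -0.11 and -0.0011, other ETS factors between -0.10 and 0.13.

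Signs of single genes turned with 1 library left out and, for Spry4, Dusp6 and Phlda1, in the libraries numbered 2 alone (KO over WT ratios 0.745, 0.822 and 0.755). Leaving aside alternatives that cannot move a fold change, 63 member values kept the sign and 9 did not. All 9 had 1 library left out, whereas another pseudocount or scaling of all 4 libraries turned no sign. Of the 9 members, 9 were above 0 without KO replicate 1 and 6 without KO replicate 2. Above 0 were 4 without WT replicate 1 and 8 without WT replicate 2. The values that turned were Spry1 (-0.044), Spry2 (-0.0032) and Spry4 (-0.27) without KO replicate 2, Spry1 (-0.079), Spry2 (-0.074), Spry4 (-0.79), Dusp6 (-0.71) and Phlda1 (-0.29) without WT replicate 1, and Spred1 (-0.17) without WT replicate 2. The log2 fold changes with 1 library left out ranged as follows: Spry1 -0.079 to 0.71, Spry2 -0.074 to 0.63, Spry4 -0.79 to 1.03, Spred1 -0.17 to 1.19, Dusp6 -0.71 to 1.95, Phlda1 -0.29 to 0.53. Among the other named genes, 13 values turned, and the ranges were Dusp1 -1.03 to 2.74, Egr1 -1.56 to 2.52, Ier3 -0.15 to 0.57, Mapk3 -0.87 to 0.14, Fos -3.74 to 1.16, Ccnd1 -0.74 to 0.54, Elk1 -0.086 to 1.04, Ets2 -0.21 to 0.45. With 2 libraries per group, differences smaller than the intervals given could not be detected.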

Other observations

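Beside the genes named for their size, other tested genes of the receptor and cascade lists had both KO libraries above both WT libraries, and they were picked out after their values were seen. Fgfr1, an FGF receptor that reached the filter through the KO libraries alone, was at 1.83 and 1.32 FPKM in KO and at 0.651 and 0.639 FPKM in WT. Hbegf, a ligand of the EGF receptor, was at 16.9 and 12.6 FPKM in KO and at 9.54 and 11.9 FPKM in WT. Rps6ka1, which encodes the ERK-activated kinase RSK1, was at 2.98 and 2.02 FPKM in KO and at 1.51 and 1.24 FPKM in WT. None passed limma's adjusted threshold, and their log2 fold changes were 0.64 (SE 0.37), 0.42 (SE 0.30) and 0.55 (SE 0.37).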
